A study of Mus musculus with 12 samples.

Results

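Lin28a, Lin28b, Igf2bp1, Igf2bp2, Igf2bp3, Hmga1, Hmga2 and Arid3a are 8 fetal-type genes among the 32285 genes of the table. They were taken by gene name and followed across Ly6d- CLPs and Flk2+ MPPs from bone marrow of mice at 1MO and 3MO (1 and 3 months of age). These genes were chosen by name with the age differences in the same libraries already known. Their change with age is therefore described here without a test. The difference between CLPs and MPPs, averaged over both ages, is a separate contrast that did not serve to choose them, and it was tested.

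LIN28 proteins are RNA-binding proteins of fetal cells that block the maturation of let-7, a family of microRNAs that silence mRNAs through sites in their 3′ UTRs. The mRNAs of IGF2BP proteins, HMGA proteins, ARID3A and LIN28 itself are known let-7 targets, so a fall of LIN28 after birth is known to release let-7 and to lower this group of genes. In blood formation, LIN28B and its targets are known for the fetal mode of lymphoid development, in which stem cells and progenitors give rise to B and T cell subsets that adult marrow makes poorly.

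The samples were WT animals of strain C57BL6/J. The 4 groups were 1MO CLP, 3MO CLP, 1MO MPP and 3MO MPP, with 3 libraries in each and 12 in all, and nothing but age and sorted population differed between them by label. CLPs are common lymphoid progenitors, and the Ly6d- gate leaves out those already committed to the B lineage. MPPs are multipotent progenitors, and Flk2 (the product of Flt3) marks those with lymphoid potential. Both were sorted from lineage-depleted marrow of the long bones, and polyadenylated RNA was sequenced in bulk, so a lower share of expressing cells and less RNA per cell cannot be told apart.

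The estimated counts summed to between 8889083 and 20677785 per library. Totals were not separated by age in CLPs (p = 0.6), by age in MPPs (p = 1.0) or between CLPs and MPPs (p = 0.197, exact permutation tests, two-sided), and 3 against 3 libraries cannot give less than p = 0.1. Among the 6 CLP markers, 5 passed as higher in CLPs than in MPPs, and Flt3, which both gates share, stood 0.23 higher (adjusted p = 0.104, edgeR). Il7r, the receptor chain for IL-7, was at 371 ± 37.6 CPM in 1MO CLP and 10.4 ± 7.14 CPM in 1MO MPP (SD, n = 3). CPM here are counts relative to the library total after TMM scaling. Of the 6 MPP markers, Kit, Ly6a and Cd34 passed as lower in CLPs. The other 3 stood higher in CLPs, against the label, and of these Mpo passed (0.51 on the log2 scale, adjusted p = 0.0149, edgeR's quasi-likelihood test). Ly6d itself was read in both populations, at 5.32 ± 2.62 CPM in 1MO CLP and 0.953 CPM in 1MO MPP (SD 1.15).

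The let-7 family is shown first, because its seed has a match in the 3′ UTR of each of the 8 genes. Of the 1679 mature mouse microRNAs in the RefSeq table (GRCm38.p6), 11 sequences from 13 loci carried the same seed, which is bases 2 to 8 and is printed in capitals. Those below differ from each other only outside it.
mmu-let-7a-5p: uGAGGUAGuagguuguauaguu
mmu-let-7b-5p: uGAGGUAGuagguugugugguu
mmu-let-7d-5p: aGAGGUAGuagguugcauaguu
mmu-let-7g-5p: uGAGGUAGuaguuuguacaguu
mmu-let-7i-5p: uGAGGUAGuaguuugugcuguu
mmu-miR-98-5p: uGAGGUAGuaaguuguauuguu

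LIN28 proteins are known to grip a GGAG in the loop of let-7 precursors. The let-7g hairpin is shown as an example, with the seed and the GGAG between its arms in capitals. Of the 11 family hairpins with both arms annotated, 8 held GGAG between the arms, against 9.0% of the 644 hairpins in the table with 2 arms.
Mirlet7g: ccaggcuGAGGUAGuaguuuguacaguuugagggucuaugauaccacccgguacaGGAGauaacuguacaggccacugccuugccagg

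The counterpart of the seed in an mRNA is CTACCTC, searched on the sense strand of the longest 3′ UTR of each gene in GENCODE M21 (GRCm38). All 8 genes held at least 1 match, 19 in total, of which 10 were followed by A, the base that is known to strengthen a site. Of 21037 genes with an annotated 3′ UTR, 9.0% held a match and 0.15% held 3 or more. The members were in part known as let-7 targets when they were grouped, so the share of members with a match describes them and is no test.

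The first match in the 3′ UTR of each of 5 members is printed in the sense of the mRNA, with the match, and the A where it follows, in capitals. They lie at chr10:45381022-45381043 on the minus strand for Lin28b, chr6:49086787-49086808 on the minus strand for Igf2bp3, chr10:120364224-120364245 on the minus strand for Hmga2, chr10:79953896-79953917 on the plus strand for Arid3a and chr17:27563278-27563299 on the plus strand for Hmga1.
Lin28b: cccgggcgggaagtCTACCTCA
Igf2bp3: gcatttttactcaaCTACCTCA
Hmga2: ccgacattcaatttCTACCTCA
Arid3a: aggcaagtttctttCTACCTCA
Hmga1: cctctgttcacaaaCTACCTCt

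Lin28b, Hmga2 and Igf2bp1 held 4 matches each. Among genes whose 3′ UTR was between 0.8 times that of Hmga2 and that length divided by 0.8, 0.12% held as many, and the same share was 0.29% for Lin28b and 0.33% for Igf2bp1. Lin28a and Arid3a held 2 matches each, which 2.06% and 2.35% of genes of like length reached. Igf2bp2, Igf2bp3 and Hmga1 held 1 each, which 12.1%, 13.3% and 8.2% of genes of like length reached, so for these a match was no rare feature. In Lin28b and Hmga2 1 of the 4 matches was followed by A, and in Arid3a 1 of 2, in each case the match printed above. In Igf2bp1 3 of 4 were, in Lin28a 2 of 2, and in Igf2bp2 and Igf2bp3 the only match. Hmga1 was the member without a match followed by A.

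**Figure D1:**
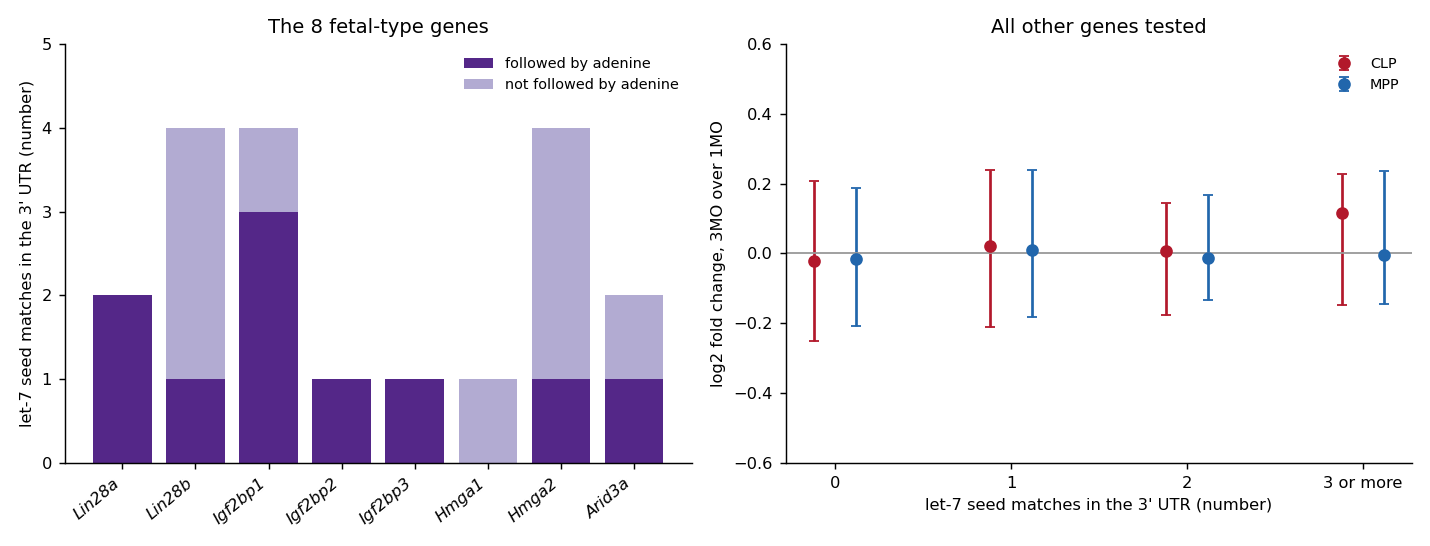
The left panel plots the number of let-7 seed matches in the longest 3′ UTR of each of the 8 genes, split by whether an adenine follows. The right panel plots, for all other genes tested, the median log2 fold change of 3MO over 1MO (points) with the 25th and 75th percentiles (bars) by number of matches, and all medians lie between -0.02 and 0.12.

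The RNA of the 8 genes differed widely in level. Per kilobase of exon, Hmga1 was the highest in 1MO CLP at 138.6 ± 27.8 CPM per kb, followed by Hmga2 at 22.7 ± 6.50, Arid3a at 13.5 ± 0.961 and Igf2bp3 at 7.02 ± 1.95 CPM per kb (SD, n = 3). Lin28a, Igf2bp2 and Lin28b followed at 0.27 ± 0.158, 0.216 ± 0.21 and 0.128 ± 0.0921 CPM per kb, which did not differ beyond their spread, and Igf2bp1 was at 0. In 3MO MPP the order was Hmga1 at 56.9 ± 1.5, Arid3a at 5.93 ± 0.383 and Hmga2 at 5.74 ± 0.892 CPM per kb, the latter pair within their spread, with the rest under 0.3 CPM per kb. Hmga2 ranked above Arid3a at 3MO when the longest transcript was used as length, and below it with all exons. Of the 8 genes, 7 passed the filter on low counts, of which Lin28b passed it through the 1MO libraries alone and Lin28a through the CLP libraries alone.

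**Figure D2:**
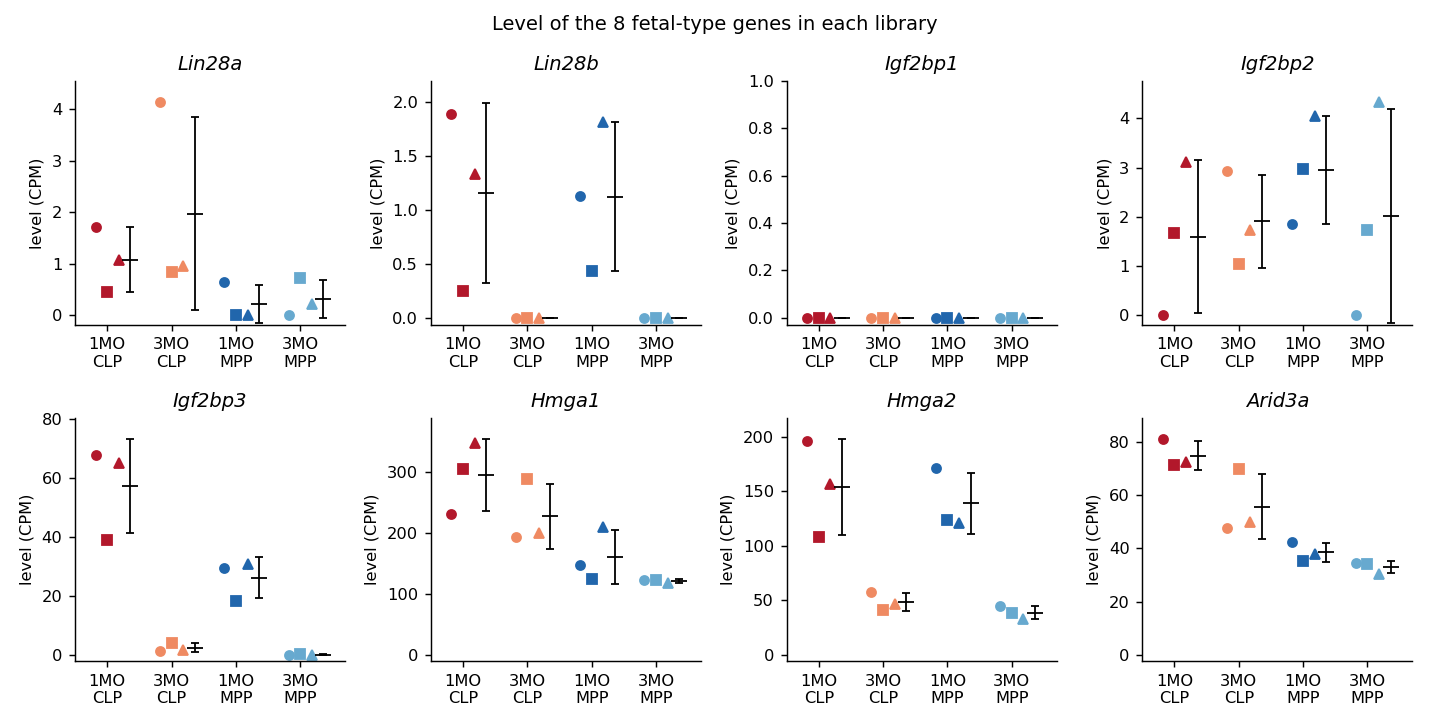
Level of each gene in CPM (vertical axes, scaled per gene) in the 12 libraries, with circle, square and triangle for libraries 1, 2 and 3 of a group and the black bar for mean ± SD (n = 3). Lin28b, Igf2bp3 and Hmga2 are lower in every 3MO library than in any 1MO library of the same population, and Igf2bp1 is at 0 throughout.

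Lin28b, on the minus strand of chr10:45376620-45486395, encodes the LIN28 protein known from fetal blood progenitors. Its estimated counts were 21, 5 and 21 in the 1MO CLP libraries and 14, 4 and 30 in 1MO MPP. In 3MO CLP they were 0, 0 and 0, and in 3MO MPP they were also 0, 0 and 0. Every 1MO library thus held Lin28b reads and no 3MO library held any, in either population. As the limit that a count of 0 allows, 3 counts over the 3MO group were taken. The level from the 47 counts summed in 1MO CLP was 13.5-fold that limit, and the level from the 48 in 1MO MPP was 15.7-fold. These folds take the 1MO sums as exact, and the intervals below cover counting error only. Libraries of a group differed by more than counting error, with a chi-square per degree of freedom of 17.6 to 85.6 between pairs. The level was low even at 1MO, at 1.16 ± 0.835 CPM in CLPs and 1.12 ± 0.684 CPM in MPPs, and the 0 counts at 3MO allow levels of up to 0.0738 CPM in CLPs and 0.0801 CPM in MPPs.

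Lin28a, on the minus strand of chr4:134003330-134018841, is the paralog best known from embryonic stem cells. Its counts were 19, 9 and 17 in 1MO CLP and 41, 15 and 12 in 3MO CLP. They were 8, 0 and 0 in 1MO MPP and 0, 10 and 3 in 3MO MPP. The ages overlapped in both populations, unlike those of Lin28b. Lin28a had reads in 6 of 6 CLP libraries and 3 of 6 MPP libraries, a fitted log2 difference of 2.43 (SE 1.16), and of 1.88 to 4.74 with a library left out. Since Lin28a met the filter through the CLP libraries alone, no test is read from this difference.

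The IGF2BP proteins bind mRNAs and are known to protect them from decay. Igf2bp3 (chr6:49085223-49214957, minus strand) was by far the most abundant of the 3 in 1MO libraries. Its level was 67.7, 38.9 and 65.1 CPM in 1MO CLP and 1.21, 4.2 and 1.82 CPM in 3MO CLP. In MPPs it was 29.6, 18.4 and 30.7 CPM at 1MO and 0, 0.288 and 0 CPM at 3MO. The lowest 1MO library of each population was thus well above the highest 3MO library. Igf2bp3 kept 111 counts in 3MO CLP, after 2567 in 1MO CLP, a pooled ratio of 19.9. The 95% counting interval of 16.5 to 24.3 leaves out the spread between libraries and is no test of age. In 3MO MPP 4 counts were left, all in library 2, after 1047 in 1MO MPP, and the pooled ratio of 257 had an interval of 100.1 to 945. On the fitted log2 scale the difference was -4.52 (SE 0.53) in CLPs and -7.84 (SE 0.73) in MPPs. Without library 2 of 3MO CLP, which held 76 of the 111 counts, it was -5.22, and without library 2 of 3MO MPP it was -11.48, a fit to 0 counts that is no bound.

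Igf2bp2 and Igf2bp1 did not share this pattern. Igf2bp2 (chr16:22059009-22163299, minus strand), the family member kept in adult tissues, gave 0, 34 and 49 counts in 1MO CLP and 29, 19 and 22 in 3MO CLP. In MPPs it gave 23, 27 and 67 counts at 1MO and 0, 24 and 61 at 3MO. The ages overlapped in both populations, and in 2 libraries the gene was at 0 while others of the same group reached 49 or 61 counts. Its log2 difference between ages was 0.24 (SE 1.35) in CLPs and -0.54 (SE 1.34) in MPPs, and neither sign held with a library left out (-0.33 without library 1 of 1MO CLP, 0.03 without library 1 of 3MO MPP). Igf2bp1 (chr11:95957163-96005940, minus strand) had 0 counts in all 12 libraries, which allows at most 0.0637 CPM over the libraries of 1MO CLP and 0.0801 CPM over those of 3MO MPP.

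HMGA proteins bend AT-rich DNA and open chromatin, and Hmga2 (chr10:120361275-120476469, minus strand) is known to sustain the self-renewal of fetal and young stem cells. Its level was 196, 108 and 157 CPM in 1MO CLP against 58.0, 41.7 and 47.0 CPM in 3MO CLP. In MPPs it was 172, 124 and 121 CPM at 1MO and 45.2, 38.1 and 33.2 CPM at 3MO. The ages did not overlap in either population. The log2 difference was -1.66 (SE 0.23) in CLPs and -1.84 (SE 0.24) in MPPs. Hmga2 was lower at 3MO in both, and was read there at over 30 CPM in every library, where Lin28b was not detected.

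Hmga1 (chr17:27556497-27563674, plus strand), the family member of dividing cells at all ages, moved less. Its level was 231, 304 and 348 CPM in 1MO CLP and 193, 289 and 200.3 CPM in 3MO CLP, which overlapped. In MPPs it was 148, 124 and 209.9 CPM at 1MO and 122, 123 and 117 CPM at 3MO, where the nearest libraries of the ages stood at 124 and 123 CPM. The log2 difference was -0.37 (SE 0.22) in CLPs and -0.41 (SE 0.22) in MPPs. With a library left out it ran from -0.58 (without library 2 of 3MO CLP) to -0.24 (without library 3 of 1MO CLP) in CLPs, and in MPPs it was -0.17 without library 3 of 1MO MPP. Hmga1b on chromosome 11, a near-identical copy to which the quantification may have assigned part of the reads, was at 1.97 ± 1.06 CPM in 1MO CLP and 3.95 ± 1.29 CPM in 3MO CLP, a small part of the Hmga1 level.

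Arid3a (chr10:79927043-79955018, plus strand) encodes a transcription factor that takes part in B cell development and is known as a let-7 target in fetal B cell output. It was at 81.0, 71.2 and 72.3 CPM in 1MO CLP and 47.5, 69.6 and 49.8 CPM in 3MO CLP. In MPPs it was at 42.5, 35.2 and 37.7 CPM at 1MO and 34.4, 34.1 and 30.6 CPM at 3MO. Its log2 difference was small, -0.43 (SE 0.20) in CLPs and -0.22 (SE 0.20) in MPPs, although in neither population did the ages overlap, and it was -0.15 in MPPs without library 1 of 1MO MPP. Its paralog Arid3b stood at 18.4 ± 9.45 and 22.6 ± 10.8 CPM in 1MO and 3MO CLP and at 19.3 ± 7.48 and 15.1 ± 4.61 CPM in the MPPs.

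In all, the 3MO libraries lay below every 1MO library for Lin28b, Igf2bp3, Hmga2 and Arid3a in CLPs, which is 4 of the 7 members tested, and for these and Hmga1 in MPPs, which is 5 of 7. Over the 13367 genes tested the same held for 6.13% in CLPs and 4.61% in MPPs, and 0.0748% (10 genes) and 0.0224% (3 genes) were called by edgeR's quasi-likelihood test at an adjusted p under 0.05. Nothing is read from these shares, since the members were selected on these contrasts. The age by cell type interaction called 0 genes (0%) with edgeR, 429 at an unadjusted p under 0.05 and 6 with DESeq2. For Igf2bp3 the interaction was 3.32 on the log2 scale, a value that rests on the 4 counts of 3MO MPP. For the other members with 1MO levels over 20 CPM it was between -0.20 and 0.18. With a library left out it reached -0.40 for Arid3a and 0.40 for Hmga2.

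CLPs and MPPs were then compared over both ages. Igf2bp3, Hmga1 and Arid3a were higher in CLPs, the population further along the lymphoid path, and Hmga2 was not separated between them. Of the 7 members in the fit these 3 passed, where 13.3% of all genes tested passed (796 higher and 976 lower in CLPs), and the share is not read as support because Lin28a and Lin28b met the filter only through libraries where they were high. Igf2bp3 was higher by 2.78 on the log2 scale (SE 0.45, adjusted p = 0.000504, edgeR's quasi-likelihood test, adjusted by Benjamini-Hochberg over 13367 genes). Hmga1 was higher by 0.89 (SE 0.15, adjusted p = 0.000892, edgeR) and Arid3a by 0.86 (SE 0.14, adjusted p = 0.000616, edgeR). All 3 kept their call when any one of the 12 libraries was left out. Without library 2 of 3MO MPP, the only one of its group with Igf2bp3 reads, the Igf2bp3 difference was 4.60.

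The fitted Igf2bp3 difference was not of one size at the 2 ages, a contrast described without a test. In a fit of the 1MO libraries alone it was 1.13 (adjusted p = 0.0323, edgeR), and all 3 CLP libraries exceeded all 3 MPP libraries. In the 3MO libraries alone it was 4.46 and did not pass (adjusted p = 0.208, edgeR), with 111 counts against 4. Arid3a was higher by 0.97 at 1MO (adjusted p = 0.00633, edgeR) and by 0.75 at 3MO, where it did not pass (adjusted p = 0.148, edgeR). Hmga1 passed at both ages, with 0.89 at 1MO (adjusted p = 0.0376, edgeR) and 0.91 at 3MO (adjusted p = 0.0334, edgeR).

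Hmga2 differed by 0.24 (SE 0.16, adjusted p = 0.414, edgeR), against its fall of 1.66 and 1.84 with age. With a library left out the Hmga2 difference between populations ran from 0.13 to 0.34, called in 0 of 12 fits. Lin28b differed by 0.01 on the fitted scale, which has no precision for a gene at 0 in 6 libraries, and 47 and 48 counts in the 1MO groups are the direct comparison. Igf2bp2 differed by -0.49 (SE 0.95, adjusted p = 0.823, edgeR), and by 0.11 without library 3 of 3MO MPP. Hmga2 was thus lower at 3MO and not called between the populations, Hmga1 and Arid3a were called between the populations and changed little with age, and Igf2bp3 was both lower at 3MO and higher in CLPs.

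**Figure D3:**
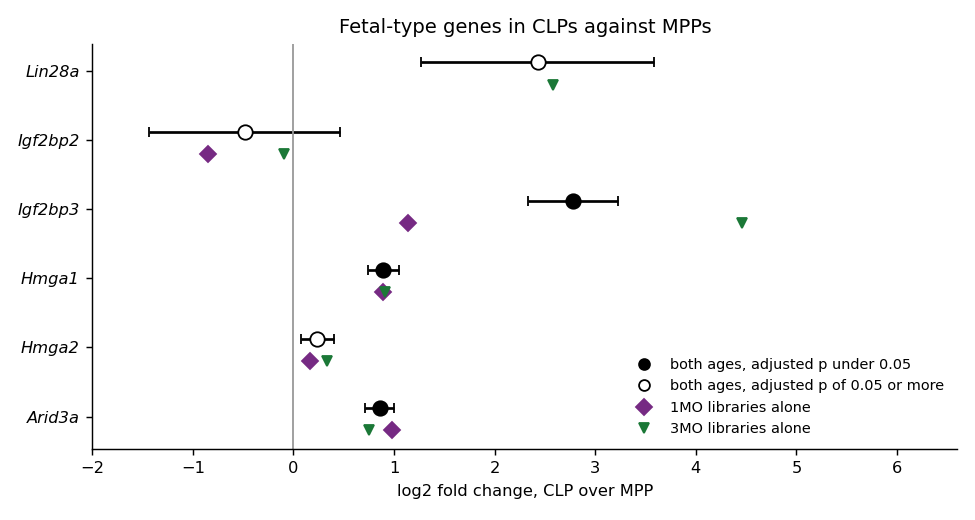
Log2 fold change of CLP over MPP (horizontal axis) for 6 members, with circles for the fit over both ages (bars are SE), filled where the adjusted p was under 0.05, and diamonds and triangles for the 1MO and 3MO libraries alone. Hmga1 lies between 0.89 and 0.91 and Arid3a between 0.75 and 0.97, Igf2bp3 moves from 1.13 to 4.46 between the ages, and Lin28a has no 1MO value because it did not pass the filter there.

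Genes of dividing cells moved with the population as Hmga1, Arid3a and Igf2bp3 did. Of 15 such genes 9 passed as higher in CLPs and 0 as lower (14 stood higher and 1 lower), with a median log2 difference of 0.47 against -0.03 over all genes. Top2a, the topoisomerase of replicating DNA, was higher by 0.50 (adjusted p = 0.0012, edgeR), Plk1, a mitotic kinase, by 0.61 (adjusted p = 0.00634, edgeR) and Aurka, another mitotic kinase, by 0.66 (adjusted p = 0.00858, edgeR). Their summed level was 5324 to 5867 CPM over the 6 CLP libraries and 3659 to 4692 CPM over the 6 MPP libraries. With age 0 of the 15 passed in CLPs (median -0.16) and 0 in MPPs (median -0.07), and the smallest p belonged to Plk1 in CLPs at -0.41 (adjusted p = 0.851, edgeR). Their part in the difference of Hmga1, Arid3a and Igf2bp3 was not tested.

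Markers of other cells also moved with age. The 6 stroma genes, which include the collagen genes Col1a1 and Col1a2, summed to 599, 213 and 217.5 CPM in 1MO CLP and to 4.74, 7.02 and 10.2 CPM in 3MO CLP. In MPPs they summed to 48.9, 80.8 and 13.0 CPM at 1MO and to 13.3, 14.7 and 5.88 CPM at 3MO. Col1a2 (-7.52, adjusted p = 0.00378, edgeR) and Col1a1 (-8.75, adjusted p = 0.0337, edgeR) were the 2 of the 5 tested that passed in CLPs, and 0 passed in MPPs. Library 3 of 1MO MPP had stroma genes within the range of 3MO MPP, and it held 30 Lin28b counts, 30.7 CPM of Igf2bp3 and 121 CPM of Hmga2. Stroma genes were higher in every 1MO CLP library than in any 1MO MPP library, where Hmga2 stood at 153.9 ± 44.0 and 139.0 ± 28.3 CPM and Igf2bp3 at 57.2 ± 15.9 and 26.3 ± 6.81 CPM. Library 1 of 1MO CLP, which had the most stroma RNA of all, also had the highest Hmga2, Igf2bp3 and Lin28b levels in CPM of the 12 libraries.

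The 8 B-lineage genes summed to 83.04 to 118 CPM in 1MO CLP, 39.4 to 61.8 CPM in 3MO CLP, 13.2 to 20.6 CPM in 1MO MPP and 8.99 to 20.8 CPM in 3MO MPP. Their sums were lower at 3MO in CLPs, as the levels of Lin28b, Igf2bp3, Hmga2 and Arid3a were, with 0 of 6 genes past the test. The 3MO CLP libraries held more of them than the 1MO MPP libraries, and less Lin28b, Igf2bp3 and Hmga2. Rag1, the recombinase of early lymphoid cells, fell in CLPs by 1.45 on the log2 scale (adjusted p = 0.0428, edgeR), the CLP marker of 6 that passed with age. Of the T cell, erythroid, granulocyte and macrophage, endothelial and megakaryocyte lists, 0 genes passed with age in either population. The T cell genes summed to 7.81 to 13.2 CPM in 1MO CLP and 2.43 to 7.75 CPM in 3MO CLP, which did not overlap, and to 15.5 to 19.5 and 6.91 to 20.4 CPM in the MPPs. The granulocyte and macrophage genes stood higher at 3MO in 7 of 8 cases in MPPs (median 0.94) and 6 of 8 in CLPs (median 0.50), with Ngp, a neutrophil granule protein, at 9.14 ± 3.26 and 40.4 ± 17.2 CPM in 1MO and 3MO MPP (adjusted p = 0.384, edgeR). Between the populations, Ebf1 and Pax5 of the B-lineage list and Csf1r and Elane of the granulocyte and macrophage list were higher in CLPs, as was Pecam1 of the endothelial list, while Emcn of that list and Cd4 were lower, and 0 stroma, erythroid or megakaryocyte genes passed. Apart from the measurements given here, the part of these cells in the members' levels was not tested.

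**Figure D4:**
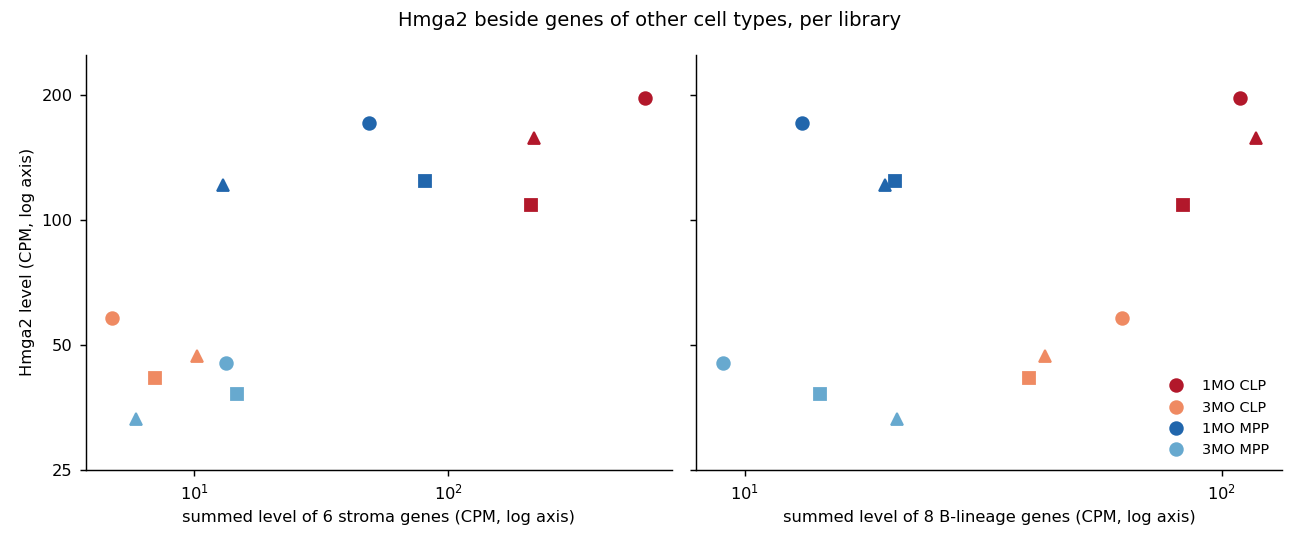
Hmga2 level (vertical, CPM, log axis) against the summed level of 6 stroma genes (left) and 8 B-lineage genes (right, both CPM, log axes), 1 point per library, coloured by group, with circle, square and triangle for libraries 1, 2 and 3. The 6 libraries at 1MO lie above 100 CPM of Hmga2 and the 6 at 3MO below 60 CPM, and 1 library of 1MO MPP has stroma genes at 13.0 CPM, within the range of 3MO MPP.

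In the machinery around let-7, no gene passed the test with age. Of 21 genes for LIN28 partners and microRNA processing 20 were tested and 0 were called in either population, with medians of 0.07 in CLPs and 0.02 in MPPs against -0.01 over all genes in both. Dicer1, which cuts the hairpin, was at 286 ± 69.2 and 275 ± 46.2 CPM in 1MO and 3MO CLP and at 245 ± 33.4 and 217 ± 20.0 CPM in the MPPs. Dis3l2, the nuclease that degrades let-7 precursors marked through LIN28, was at 42.5 ± 6.17 and 47.5 ± 6.94 CPM in the CLPs. The smallest p with age belonged to Ago3 in CLPs (0.96, SE 0.53, adjusted p = 0.891, edgeR) and to Trim25 in MPPs (-0.27, SE 0.14, adjusted p = 1.0, edgeR). Trim71, itself a fetal let-7 target with 4 matches, was at 0 in every library. Between the populations Trim25, a cofactor of LIN28A in let-7 uridylation, was higher in CLPs by 0.35 (adjusted p = 0.0253, edgeR), Syncrip, an RNA-binding protein, by 0.32 (adjusted p = 0.0455, edgeR), and Ago4, an Argonaute, lower by 0.85 (log2 difference -0.85, adjusted p = 0.0211, edgeR).

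Host transcripts of let-7 were read in part, and mature microRNAs were not measured in these polyadenylated libraries. Mir99ahg, the host of a let-7c locus, was at 8.61 ± 4.39 and 5.67 ± 2.82 CPM in 1MO and 3MO CLP and at 13.3 ± 3.64 and 10.99 ± 7.79 CPM in the MPPs. Huwe1, which hosts let-7f-2 and miR-98 in an intron and encodes a ubiquitin ligase, was at 1548 ± 222 and 1649 ± 48.1 CPM in the CLPs. Of these hosts 0 of 2 tested passed in any comparison, and Mir100hg was at 0 in every library.

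Other known let-7 targets gave no call with age. Of 27 listed, 25 were tested and 0 passed with age in either population, with medians of 0.09 in CLPs and 0.00 in MPPs. Mycn, a MYC-family factor, came nearest in MPPs, with 90.7 ± 18.1 CPM at 1MO and 38.3 ± 4.75 CPM at 3MO (-1.24, SE 0.21, adjusted p = 0.0777, edgeR), and in CLPs it stood at 27.2 ± 4.09 and 39.9 ± 1.26 CPM (0.55, SE 0.21, adjusted p = 0.777, edgeR). Ccnd1, cyclin D1, was at 80.1 ± 32.0 and 42.3 ± 9.44 CPM in 1MO and 3MO CLP (-0.92, SE 0.27, adjusted p = 0.578, edgeR). Ccnd2, cyclin D2, was at 667 ± 27.1 and 514 ± 60.5 CPM in the MPPs (-0.38, SE 0.14, adjusted p = 1.0, edgeR). Between the populations 6 of the 25 passed. The cell cycle genes Ccnd2 (0.77, adjusted p = 7.93e-05, edgeR), Cdk6 (0.78, adjusted p = 0.000935, edgeR) and Cdc25a (0.47, adjusted p = 0.0157, edgeR) were higher in CLPs, and Mycn (-0.84, adjusted p = 0.00102, edgeR), the growth factor receptor Igf1r (-0.95, adjusted p = 0.00128, edgeR) and the kinase Map4k3 (-1.03, adjusted p = 0.0128, edgeR) were lower.

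Outside the members, genes with seed matches had no lower median change with age than genes without a match. The median log2 difference with age in CLPs was -0.02 over 10975 genes without a match, 0.02 over 1162 with 1, 0.01 over 136 with 2 and 0.12 over 21 with 3 or more. In MPPs the medians were -0.02, 0.01, -0.01 and 0.00. Nr6a1, a nuclear receptor of embryonic cells and the gene with most matches at 8, differed by 1.52 (SE 1.23, adjusted p = 0.921, edgeR) in CLPs and 1.21 (SE 1.22, adjusted p = 1.0, edgeR) in MPPs and did not pass. These values describe genes, which are not independent replicates.

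Few other fetal-type genes were read. Of 11 listed, Sox17, H19, Mest, Hba-x, Hbb-y and Hbb-bh1 (6 genes) were at 0 in every library, and 4 were tested. Plag1, a zinc finger factor of fetal tissues, was at 56.0 ± 8.28 CPM in 1MO MPP and 29.7 ± 8.95 CPM in 3MO MPP (-0.91, SE 0.34, adjusted p = 1.0, edgeR), and at 27.7 ± 3.74 and 21.7 ± 11.6 CPM in the CLPs. Dlk1 and Peg3, both imprinted genes, had mean levels under 2 CPM in every group, and 0 of the 4 passed in any comparison.

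Among relatives of the HMGA and ARID3 proteins, 0 of 9 tested passed with age, with medians of -0.23 in CLPs and -0.11 in MPPs. Hmgn1, a nucleosome-binding protein, had the smallest p in CLPs (-0.74, SE 0.30, adjusted p = 0.807, edgeR), followed by Hmgb2, a DNA-bending protein (-0.34, SE 0.18, adjusted p = 0.891, edgeR). Between the populations Hmgb1, a DNA-bending protein, was higher in CLPs by 0.41 (adjusted p = 0.0408, edgeR) and Hmgn3 lower (-1.17, adjusted p = 0.0226, edgeR). Of 7 mRNAs known to be bound by IGF2BP proteins 5 were tested, and 0 passed with age (medians 0.04 and 0.00), while Cdk6 and Cd44, an adhesion receptor (0.58, adjusted p = 0.00121, edgeR), were higher in CLPs. Myc, the best known of these mRNAs, was at 242 ± 34.2 and 249 ± 18.3 CPM in 1MO and 3MO CLP and at 282 ± 30.2 and 237 ± 32.2 CPM in the MPPs.

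The members' levels over the 12 libraries were compared as Pearson's r of log2 CPM, as a description. Over all 12 libraries Lin28b and Hmga2 had the highest r (0.94), then Igf2bp3 and Hmga2 (0.91), Hmga1 and Arid3a (0.90), and Lin28b and Igf2bp3 (0.85). The libraries share 4 groups, and once group means were taken out r was 0.60, 0.03, 0.39 and 0.42 for these pairs in the same order, and the highest was that of Igf2bp3 and Arid3a (0.73, against 0.64 before). Outside the members, the genes most like Lin28b were Pcsk5 (0.89), Ptprm (0.87) and Col5a2 (0.87), and those most like Igf2bp3 were Fam155a (0.89), Depdc1a (0.87) and Ddx56 (0.86). Depdc1a (0.90), Pcsk5 (0.86) and Col12a1 (0.84) were the most like Hmga2. Col5a2 and Col12a1 are collagen genes, at 7.72 and 1.5 CPM in 1MO CLP and 0 in both 3MO groups, and Depdc1a, a gene of mitotic cells, went from 42.8 to 30.8 CPM in CLPs and from 37.5 to 26.8 CPM in MPPs.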

How the data were processed

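The authors processed the reads with an nf-core pipeline (FastQC, UMI-tools, Trim Galore, SortMeRNA, STAR, Salmon; mm10 per the labels) and deposited Salmon's estimated counts for each gene, which are length-scaled and not corrected for depth. The annotation release is not given in the sources used here. Of 32285 genes 32235 matched GENCODE M21 by identifier, and 0 columns were unmatched. Counts were rounded and tested in R 4.3.3 with edgeR 4.0.16 (filterByExpr, TMM, quasi-likelihood test, a fit of 4 groups, Benjamini-Hochberg over 13367 genes, threshold 0.05). DESeq2 1.42.0 served for an alternative, and Python 3.11.15 was used with pandas 2.3.3, numpy 2.4.6, scipy 1.17.1 and matplotlib 3.10.9. The fit was tested on simulated data. Alternatives were other size factors, filters, thinning, DESeq2, blocks, fewer groups and each library left out.

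The members and lists were chosen with earlier results of these data known. Named genes were the members, their paralogs, up to 3 rising and 3 falling genes called per list or else those of smallest p, and the 3 genes most like Lin28b, Igf2bp3 and Hmga2 (log2 CPM, prior count 2). Dicer1, Dis3l2, Huwe1, Myc, Nr6a1, Trim71, the markers given by level and the grouping of genes by seed matches were added after values were seen. Lists were written from general knowledge. The 3 libraries of a group are independent experimental repeats per the series description. Both populations were sorted per mouse per the study's methods, so CLP and MPP libraries may share mice, but equal numbers are not stated to mark a shared animal or day. The level of 1 marker gene is not reported here.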

Additional observations from a re-analysis of the deposited data

How the results depend on the processing

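Hmga1 and Arid3a kept their direction between CLPs and MPPs in every alternative run. Igf2bp3 did so wherever it was fitted, but it dropped out under the filter of at least 10 counts in every library. The calls lost were those of Arid3a and Igf2bp3 in the 3MO libraries alone. The number of genes called between CLPs and MPPs was 1772, and 900 with the 1MO and 435 with the 3MO libraries alone, which are fewer samples, and 1377 to 1782 with a library left out. With age in CLPs 10 genes were called, against 46 with every gene of at least 1 count, 4 with at least 10 counts in every library, 57 with DESeq2, 4 in a fit of the CLP libraries and 6 to 10 with a library left out (6 without library 1 of 1MO CLP or library 2 of 3MO CLP). With age in MPPs 3 were called, against 26, 1 and 32 under the first 3 of these and 3 to 5 with a library left out (5 without library 2 of 3MO MPP). The interaction called 0, against 6 without the filter, 6 with DESeq2 and 0 to 1 with a library left out (1 without library 3 of 3MO CLP). The cause of these shifts was not tested. With the replicate number as a replicate block the counts were 1979, 11, 3 and 0, and with CLPs and MPPs of one age and number as a replicate block 1842. With group means taken out, same-numbered libraries correlated over 0.1 in 5 of 18 pairs (median 0.07). For 1MO CLP with 1MO MPP, r was 0.09, -0.03 and 0.20 for numbers 1, 2 and 3. The mean r with the other numbers was -0.05, 0.02 and -0.10. These values do not settle whether equal numbers share an experiment, and the main fits left the numbers out. No member's call changed under a block. At this depth Lin28a, Lin28b and Igf2bp2, with at most 67 counts in a library, carry wide errors.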
